A study of Mus musculus with 4 samples.

Results

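The genes described here encode the second messenger enzymes that calcium-bound calmodulin switches on: the adenylyl cyclases Adcy1, Adcy3 and Adcy8, the phosphodiesterases Pde1a, Pde1b and Pde1c, the neuronal nitric oxide synthase Nos1, and the inositol trisphosphate 3-kinases Itpka and Itpkb. They were chosen by name, as genes whose probe sets carry exactly 1 gene symbol, and make up 9 of the 19938 genes measured. All 9 were measured, each by 1 probe set, and no filter on low values was applied.

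Cortical neurons were cultured from pups of postnatal day 0 on a mixed SV129 x C57BL/6 background. The pups were either wild type or Syt1 deficient, with no label saying which array came from which genotype. On day 5 in vitro they received lentivirus with shRNAs against calmodulin (knockdown, 2 samples), the same shRNAs plus wild-type calmodulin in a form resistant to them (rescue, 2 samples), or control lentivirus. RNA was taken on days 14 to 15 in vitro and read on Affymetrix mouse gene arrays. Each knockdown or rescue value is a ratio to the control array of the same repeat, so both groups share the 2 control arrays, which were not analysed here by themselves. No label says that the repeats were separate cultures, so the p-values cover the spread among these samples alone, and that spread may be technical. The medium contained Ara-C, which acts against dividing cells.

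Calmodulin links a rise of calcium to the second messengers of the cell. Bound to calcium, it stimulates cyclases that make cyclic AMP, phosphodiesterases of the Pde1 family that break down cyclic AMP and cyclic GMP, nitric oxide synthase, whose product drives cyclic GMP synthesis, and the kinases that turn inositol trisphosphate into inositol tetrakisphosphate. In forebrain neurons Adcy1 and Adcy8 are known for their part in synaptic plasticity, Itpka is found in dendritic spines, where it also bundles actin, and Nos1 is strong in a subset of inhibitory interneurons.

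Itpka was the enzyme gene farthest from control in the knockdown, at 44.5% of the control level, and it lay near control on average in the rescue. Adcy1, Pde1a and Nos1 had knockdown means of 67.1% to 69.0% of control, Itpkb had a mean above control, and Adcy3, Adcy8, Pde1b and Pde1c had means between 84.5% and 106% of it. None of the 9 passed the threshold in any of the 3 comparisons, an adjusted p of 0.05 in limma with Benjamini-Hochberg adjustment over all genes.

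The calmodulin genes Calm2 and Calm3 were below control in all 4 samples, which carried the shRNAs. For Calm2 the log2 ratios read -1.08 and -1.72 in knockdown repeats 1 and 2, with a mean of -1.40 that passed the threshold (limma adjusted p = 0.0297, and 0.0692 without either rescue repeat). They read -0.84 and -1.28 in the rescue repeats (limma adjusted p = 0.414, and 0.0129 with the repeat as a block). Calm3 was at -1.32 and -2.40 in the knockdown and at -2.41 and -3.55 in the rescue. It missed the threshold in limma (adjusted p = 0.0577 in the knockdown, 0.154 in the rescue and 0.613 between them) and passed with the block (0.000284, 1.58e-05 and 0.0169), lower in the rescue than in the knockdown. The block takes the spread between repeats that both groups share out of the error. Its p-values against control do not cover that spread. No source used here says whether these probe sets read the resistant calmodulin. The standard deviation of the log2 ratios over all genes was 0.349 in knockdown repeat 2, against 0.232 to 0.243 in the other 3 samples. The ratios hold no signal levels, so the cell type on the labels could not be checked against marker levels, and in RNA from whole cultures fewer cells of a type and less RNA per cell cannot be told apart.

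**Figure D1:**
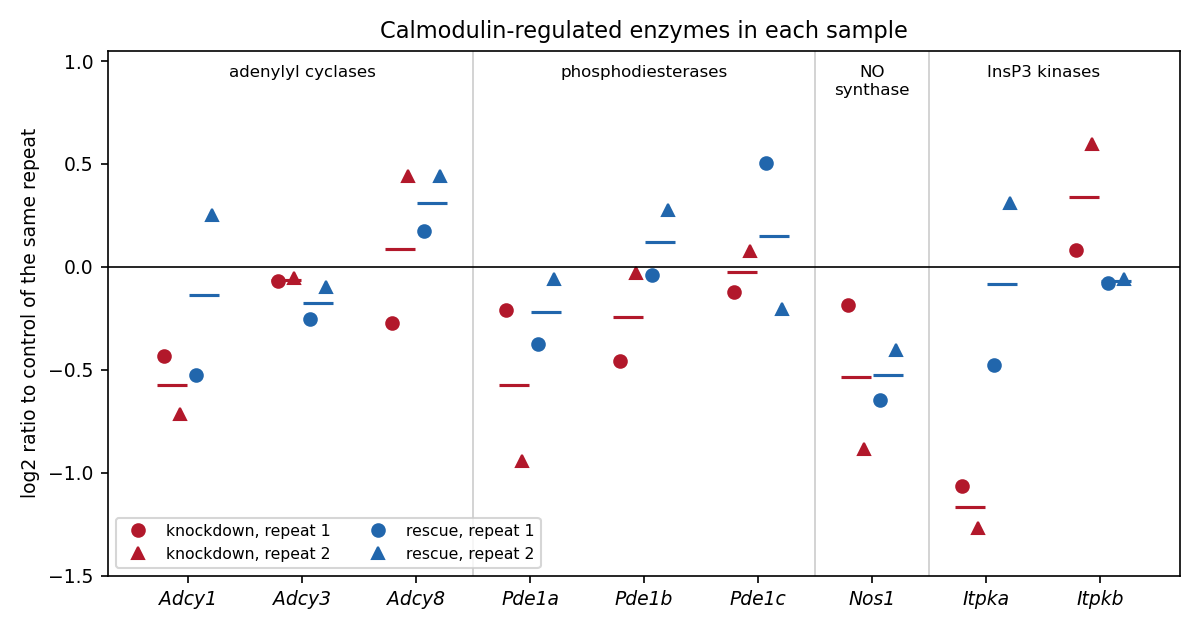
Log2 ratio to the control of the same repeat (vertical axis) for the 9 enzyme genes (horizontal axis), with knockdown in red and rescue in blue, repeat 1 as circles and repeat 2 as triangles. Short lines are group means. Both knockdown values of Itpka (-1.07 and -1.27) lie below both of its rescue values (-0.48 and 0.31).

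The adenylyl cyclases make cyclic AMP from ATP. Adcy1, which is strongly stimulated by calcium and calmodulin, was at log2 ratios of -0.43 and -0.72 in knockdown repeats 1 and 2 and at -0.53 and 0.25 in rescue repeats 1 and 2. Both knockdown samples were below control, while the rescue samples lay on either side of it, and the groups overlapped. The knockdown mean was -0.57 (SE 0.19, n = 2, limma adjusted p = 0.198), or 67.2% of control with a 95% confidence interval of 50.0% to 90.2% before adjustment for multiple tests. The rescue mean was 90.9% of control, with an interval of 67.7% to 122%.

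Adcy8, the other cyclase known for direct stimulation by calmodulin in neurons, was at -0.27 and 0.44 in the knockdown and at 0.18 and 0.44 in the rescue. The knockdown repeats fell on opposite sides of control, and in repeat 2 knockdown and rescue differed by 0.001 on the log2 scale. The knockdown mean was 106% of control (interval 80.1% to 141%, adjusted p = 0.845 in limma) and the rescue mean 124% (93.6% to 164%, adjusted p = 0.751 in limma). Adcy3, the cyclase of neuronal primary cilia and of olfactory neurons, showed the least spread of the 3 in the knockdown, with -0.07 and -0.05. It was at -0.25 and -0.10 in the rescue, so that both knockdown values lay above both rescue values, by a mean of 0.11 (interval -0.27 to 0.50, adjusted p = 1.00 in limma). Its knockdown interval was 79.4% to 115% of control, and its SE of 0.12 on the log2 scale was the smallest among the 9 genes.

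The Pde1 phosphodiesterases are the calmodulin-stimulated members of their superfamily. Pde1a, which prefers cyclic GMP, was at -0.21 and -0.94 in the knockdown and at -0.38 and -0.06 in the rescue. All 4 samples were below control, knockdown repeat 2 by far the most, and the groups overlapped. The knockdown mean was -0.58 (SE 0.18, n = 2, limma adjusted p = 0.192), which is 67.1% of control with an interval of 50.3% to 89.6%. Without knockdown repeat 1 the value was -0.94 and passed the threshold (limma adjusted p = 0.00437), as did 1272 genes in that fit, under the assumption that the lone sample varies like the rescue samples, whereas without knockdown repeat 2 it was -0.21.

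Pde1b, which is strong in striatum and also prefers cyclic GMP, was at -0.46 and -0.03 in the knockdown and at -0.04 and 0.28 in the rescue. In each repeat the knockdown was below the rescue, by 0.42 and 0.31, but the groups overlapped and the mean difference of -0.36 had an interval of -0.84 to 0.12 (limma adjusted p = 0.906). Pde1c, which breaks down both cyclic nucleotides, was at -0.12 and 0.08 in the knockdown and at 0.50 and -0.21 in the rescue. Its repeats lay on opposite sides of control in both groups. The knockdown interval of Pde1c was 74.8% to 130% of control, and that of Pde1b 66.8% to 107%.

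Nos1 makes nitric oxide, the activator of soluble guanylyl cyclase. It was the only one of the 9 genes whose 95% interval, before adjustment, lay below control in both groups. Knockdown repeats 1 and 2 had log2 ratios of -0.19 and -0.88, and rescue repeats 1 and 2 had -0.65 and -0.40. All 4 samples were below control and the rescue values lay between the knockdown values. The means were 69.0% of control in the knockdown (interval 52.3% to 90.9%, limma adjusted p = 0.200) and 69.5% in the rescue (52.7% to 91.5%, limma adjusted p = 0.574). Knockdown and rescue differed by -0.01 on the log2 scale, with an interval of -0.57 to 0.55, which spans differences of either sign. That difference was 0.46 in repeat 1 and -0.48 in repeat 2. Without knockdown repeat 1 the knockdown value of Nos1 was -0.88, whereas without knockdown repeat 2 it was -0.19. Nos1 passed the threshold in 1 of 12 alternatives, without knockdown repeat 1. There the lone knockdown sample was assumed to vary like the rescue samples.

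The inositol trisphosphate 3-kinases remove the messenger that opens calcium stores. Itpka had deposited ratios of 0.478 and 0.415 in knockdown repeats 1 and 2 and 0.718 and 1.24 in rescue repeats 1 and 2, that is log2 ratios of -1.07, -1.27, -0.48 and 0.31. Both knockdown samples were below both rescue samples, and the rescue samples lay on either side of control. The knockdown mean was -1.17 (SE 0.18, n = 2), a 2.25-fold lower level with an interval of 33.2% to 59.6% of control. This just missed the threshold in limma (adjusted p = 0.0548). The SE pools the spread of both groups, whose repeats differed by 0.20 in the knockdown and 0.79 in the rescue. Itpka passed with the repeat as a block (limma adjusted p = 0.0113), which takes spread that both groups share between repeats out of the error. It also passed without knockdown repeat 1 (-1.27) and without knockdown repeat 2 (-1.07). In those fits the lone knockdown sample was assumed to vary like the rescue samples. Itpka did not pass under the other 9 of 12 alternatives, and the limma adjusted p reached 0.395. Among these 9, the knockdown samples alone and leaving out either rescue repeat are the same fit.

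Only 19 of the 19938 genes had a lower knockdown mean than Itpka. The rescue mean of Itpka was 94.4% of control (interval 70.5% to 126%). Knockdown minus rescue was -0.59 in repeat 1 and -1.58 in repeat 2, a comparison in which the shared control cancels. The mean difference was -1.08 (SE 0.26, n = 2 per group, interval -1.68 to -0.49, limma adjusted p = 0.312, and 0.0873 with the repeat as a block), so the knockdown stood at 47.1% of the rescue. That SE and interval come from the fit without the block, in which the shared control stays in the spread. The difference passed in only 1 of 11 alternatives, without knockdown repeat 1 (-1.19). There the lone knockdown sample was assumed to vary like the rescue samples. Without rescue repeat 2 the difference was -0.69.

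Itpkb, the more widely expressed kinase of the pair, went to the other side of control. Knockdown repeats 1 and 2 read 0.08 and 0.60 on the log2 scale, and rescue repeats 1 and 2 read -0.08 and -0.06. Both knockdown values were above both rescue values, and knockdown repeat 2 stood far above the rest. The knockdown mean was 126% of control (interval 100.2% to 159%, limma adjusted p = 0.310), and knockdown minus rescue was 0.41 (interval -0.07 to 0.88, limma adjusted p = 0.847). The third kinase of the family, Itpkc, was at -0.30 and 0.08 in the knockdown and at -0.26 and -0.04 in the rescue.

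**Figure D2:**
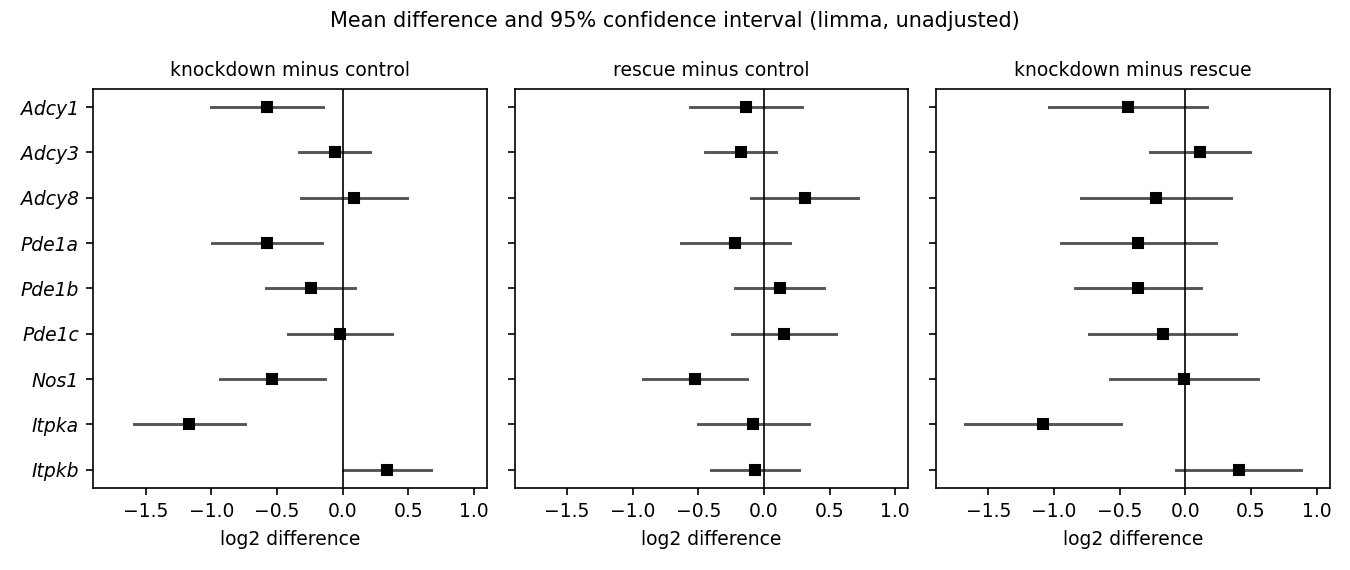
Mean log2 difference (squares) and its 95% confidence interval from limma before adjustment for multiple tests (lines) for the 9 genes, in knockdown minus control, rescue minus control and knockdown minus rescue. In the left panel the intervals of Adcy1, Pde1a, Nos1, Itpka and Itpkb do not hold 0, in the middle panel only that of Nos1, and in the right panel only that of Itpka, whose mean is -1.08.

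Counted over the 9 genes, 0 passed against control in the knockdown, where 0.306% of all genes did, and 5 had an unadjusted limma p under 0.05, where 16.0% of all genes did. With the repeat as a block 1 of the 9 passed, Itpka, against 5.39% of all genes. In the rescue 0 of 9 passed, as did 0.00% of all genes (0.125% with the block, none of them among the 9), and 1 had an unadjusted p under 0.05 (Nos1; 7.44% of all genes). For knockdown against rescue 0 of 9 passed with or without the block, against 0.0702% of all genes without it and 0.617% with it, and 1 had an unadjusted p under 0.05 (Itpka; 6.82% of all genes).

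By direction alone, 6 of 9 genes were below control in both knockdown repeats (Adcy1, Adcy3, Pde1a, Pde1b, Nos1 and Itpka), where 31.1% of all genes were. Only Itpkb was above control in both, where 30.5% of all genes were, and 2 lay on opposite sides in the repeats (Adcy8 and Pde1c; 38.3% of all genes). In the rescue 4 of 9 were below control in both repeats (Adcy3, Pde1a, Nos1 and Itpkb; 29.8% of all genes), 1 was above it (Adcy8; 24.9%) and 4 lay on opposite sides (Adcy1, Pde1b, Pde1c and Itpka; 45.3%). Within the repeats the knockdown was below the rescue both times in 2 genes (Pde1b and Itpka; 24.3% of all genes) and above it both times in 2 (Adcy3 and Itpkb; 30.1%). Both knockdown values lay below both rescue values in 1 gene (Itpka; 15.1% of all genes) and above them in 2 (Adcy3 and Itpkb; 16.5%). The median of the 9 knockdown means was -0.24 against 0.00 over all genes, and that of the rescue means -0.08 against -0.01.

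The repeats differed most, within the knockdown, for Pde1a (by 0.74), Adcy8 (0.72) and Nos1 (0.70), and least for Adcy3 (0.02). Within the rescue they differed most for Itpka (0.79), Adcy1 (0.78) and Pde1c (0.71), and least for Itpkb (0.02). In order of knockdown mean the genes ran Itpka, Pde1a, Adcy1, Nos1, Pde1b, Adcy3, Pde1c, Adcy8 and Itpkb. Pde1a, Adcy1 and Nos1 were separated by no more than 0.04, far less than the spread between their repeats. Each of these values is a ratio of one gene to its own control, not a level, so the order says nothing of which enzyme is the more abundant.

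By distance over the 4 log2 ratios, the genes most like Itpka, among 17062 compared, were Kcnb2 (distance 0.317), Kcnq3 (0.396) and Prdm8 (0.418), where the median gene stood at 1.79. Most genes lay near control, so that median mainly restates how far Itpka lay from control. Kcnb2 encodes a delayed rectifier potassium channel and was at -0.82, -1.32, -0.29 and 0.30 in knockdown repeats 1 and 2 and rescue repeats 1 and 2. Kcnq3, a subunit of the M-current potassium channel that itself binds calmodulin, was at -1.02, -1.23, -0.49 and -0.08, and Prdm8, a transcriptional regulator of cortical neurons, at -0.80, -1.43, -0.30 and 0.10. Of the 3 only Kcnq3 passed in the knockdown (-1.12, limma adjusted p = 0.0281), and not after quantile normalization, with every probe set tested or with the knockdown samples alone (adjusted p from 0.0608 to 0.395). The likeness is a description over 4 samples that share 2 control arrays.

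The stretch of genome just upstream of the RefSeq start is shown for the 2 kinases because they went to opposite sides of control. Both are 250 bases of RefSeq sequence from GRCm38.p6, plus strand, read 5′ to 3′ and ending at the base before the start, at chr2:119742087-119742336 for Itpka and chr1:180330226-180330475 for Itpkb. Capitals mark CpG dinucleotides.
Itpka: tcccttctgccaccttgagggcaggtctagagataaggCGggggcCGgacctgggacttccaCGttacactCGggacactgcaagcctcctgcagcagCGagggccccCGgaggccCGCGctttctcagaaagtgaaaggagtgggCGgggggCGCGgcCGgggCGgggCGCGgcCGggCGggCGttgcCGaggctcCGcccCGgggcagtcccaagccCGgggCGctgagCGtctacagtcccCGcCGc
Itpkb: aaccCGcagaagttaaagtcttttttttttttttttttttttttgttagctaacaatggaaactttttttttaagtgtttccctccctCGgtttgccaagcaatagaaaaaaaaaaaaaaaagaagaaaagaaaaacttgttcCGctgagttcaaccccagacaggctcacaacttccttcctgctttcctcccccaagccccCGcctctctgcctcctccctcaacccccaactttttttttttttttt
The Itpka window holds 26 CpG dinucleotides and 72.8% G and C, more than 94.0% of the 32851 promoter windows in the table. The Itpkb window holds 4 CpG dinucleotides and 38.4% G and C, more than 9.05% of them.

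Promoter windows were found for 8 of the 9 genes, 16 windows in all. The full cyclic AMP response element, TGACGTCA, was in 0 of the 16 windows on either strand and in 1.55% of all windows. The shorter core of it, TGACG, which lies within the full element, was in 1 window each of Nos1 and Pde1a, 2 of 16, against 17.8% of all. The E-box CANNTG was in 12 of 16, in windows of Adcy1, Nos1, Pde1a, Pde1b and Pde1c, against 66.2% of all. The EGR-like motif GCGGGGGCG was in 0 of 16, against 2.57%. These counts describe letters in these windows only, and several windows belong to the same gene.

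Beyond the calmodulin-regulated enzymes, 61 of 64 listed genes of the same messenger pathways were measured. Against control 0 of 61 passed in limma in the knockdown, 14 had an unadjusted p under 0.05 (16.0% of all genes did), and 7 passed with the repeat as a block, 5 lower (3.48% of all genes) and 2 higher (1.91%). In the rescue 0 of 61 passed, with 4 at an unadjusted p under 0.05 (7.44% of all genes) and 0 with the block. For knockdown against rescue 0 passed, with 8 at an unadjusted p under 0.05 (6.82% of all genes) and 0 with the block. In the knockdown 28 of 61 were below control in both repeats and 12 above it, where 31.1% and 30.5% of all genes were. The median of the 61 knockdown means was -0.11 and that of the rescue means -0.03.

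Among the 7 cyclases that calmodulin does not stimulate directly, the median was 0.04 in the knockdown and 0.12 in the rescue. Adcy5, the main striatal cyclase, which calcium inhibits, was at -0.36 and -0.58 in the knockdown and at -0.19 and -0.16 in the rescue (limma adjusted p = 0.129 against control in the knockdown, and 0.0436 with the repeat as a block). Adcy4 was at 0.10, 0.26, 0.31 and 0.29 in knockdown repeats 1 and 2 and rescue repeats 1 and 2.

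Of 18 other cyclic nucleotide phosphodiesterases, 7 were below control in both knockdown repeats (31.1% of all genes were) and 2 above it (30.5% of all genes), with a median of -0.07. Pde2a, which cyclic GMP stimulates, was at -0.42 and -0.92 in the knockdown and at -0.42 and 0.06 in the rescue (limma adjusted p = 0.123 in the knockdown, and 0.0468 with the block). Pde8b, a high-affinity cyclic AMP phosphodiesterase, was at 0.54 and 0.53 in the knockdown and at -0.08 and 0.23 in the rescue, so the groups did not overlap (limma adjusted p = 0.111 against control and 0.629 against rescue; 0.0338 and 0.278 with the block). In the rescue Pde5a, specific for cyclic GMP, was at -0.43 and -0.59 and Pde3b at -0.47 and -0.17.

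The receivers of cyclic AMP had a knockdown median of -0.11 over 16 genes, of which 8 were below control in both knockdown repeats and 4 above it (31.1% and 30.5% of all genes). Both type II regulatory subunits of protein kinase A, which hold the catalytic subunits inactive until cyclic AMP binds, were below control in both knockdown repeats. Prkar2a was at -0.63 and -0.98 in the knockdown and at 0.02 and -0.81 in the rescue (limma adjusted p = 0.117 in the knockdown, and 0.0139 with the block). Prkar2b was at -0.45 and -0.87 in the knockdown and at -0.24 and 0.15 in the rescue (limma adjusted p = 0.104, and 0.0370 with the block). Rapgef3, an exchange factor that cyclic AMP activates directly, named here after its values were seen, was above control in the knockdown at 0.28 and 0.69 and at -0.22 and -0.13 in the rescue (limma adjusted p = 0.152 in the knockdown, and 0.0428 with the block). The transcription factor gene Atf1 was at -0.42 and -0.14 in the rescue.

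Of the 8 genes around nitric oxide and cyclic GMP, 5 were below control in both knockdown repeats (31.1% of all genes were) and 2 above it (30.5%), with a median of -0.24 in the knockdown and 0.06 in the rescue. Prkg2, a cyclic GMP-dependent kinase, was at -0.56 and -0.30 in the knockdown and at 0.23 and 0.22 in the rescue, without overlap (limma adjusted p = 0.160 against control and 0.360 against rescue). Gucy1a1, a subunit of the guanylyl cyclase that nitric oxide activates, was at -0.15, -0.52, -0.20 and -0.17 in knockdown repeats 1 and 2 and rescue repeats 1 and 2. Prkg1, the other cyclic GMP-dependent kinase, was at -0.61 and -0.15 in the rescue.

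Of 12 inositol phosphate genes, 5 were below control in both knockdown repeats and 2 above it (31.1% and 30.5% of all genes), with a median of -0.10. Plcb1, a phospholipase that produces inositol trisphosphate, was at -0.47 and -0.59 in the knockdown and at -0.26 and -0.09 in the rescue (limma adjusted p = 0.103, and 0.0337 with the block). Inpp1, an inositol phosphate phosphatase, was at -0.30 and -0.37 in the knockdown and at 0.20 and 0.04 in the rescue. In the rescue Itpk1, another inositol phosphate kinase, was at -0.48 and -0.08, and Plcb4 at -0.24 and -0.16.

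**Figure D3:**
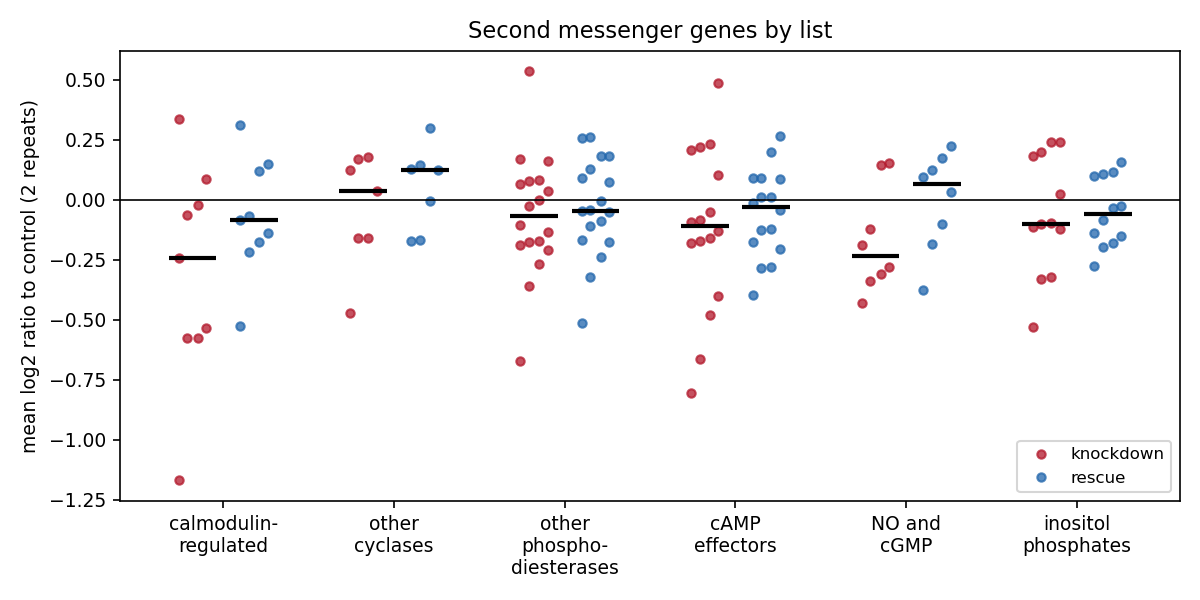
Mean log2 ratio to control of each gene (points, mean of 2 repeats) in the calmodulin-regulated enzymes and in 5 further lists of the same pathways, with the knockdown in red and the rescue in blue, and list medians as black lines. The lowest knockdown point is Itpka at -1.17, and the median of the calmodulin-regulated enzymes is -0.24 in the knockdown.

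Markers of several cell types lay off control in the same samples. None passed in limma against control in the knockdown. With the repeat as a block 5 of 10 excitatory markers passed (4 lower, 1 higher) and 5 of 13 interneuron markers (all lower). So did 3 of 10 astrocyte markers (all higher), 1 of 7 pan-neuronal markers (Rbfox3, lower) and 1 of 4 markers of Nos1-expressing interneurons (higher). Over all genes 3.48% passed as lower and 1.91% as higher. Among the markers, only Gad1 passed in the rescue with the block, as lower, where 0.125% of all genes passed. Only Neurod6 passed in knockdown against rescue with the block, as lower, where 0.617% of all genes passed. The passes against control leave out the spread between repeats that both groups share. Excitatory neuron markers (10 of 11 listed were measured) had medians of -0.30 and -0.63 in the knockdown repeats and -0.08 and -0.10 in the rescue repeats. Among them Neurod6 was at -0.81 and -2.49 in the knockdown, and Slc17a6 was above control in all 4 samples, at 0.66 and 1.42 (knockdown) and 1.61 and 0.62 (rescue). Neurod1 was at 0.35 and 0.56 in the rescue. In the knockdown 8 of 10 excitatory markers were below control in both repeats and 1 above it (31.1% and 30.5% of all genes). Whether these markers have a part in the Itpka values was not tested.

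Interneuron markers, of interest for Nos1, had medians of 0.14 and -0.58 over 13 genes in the knockdown and of -0.28 and -0.54 in the rescue. In the knockdown 6 of 13 were below control in both repeats, 6 lay on opposite sides and 1 was above it (31.1%, 38.3% and 30.5% of all genes). That 1 was Slc32a1, the vesicular GABA transporter, named after its values were seen, at 0.36 and 0.34 (knockdown) and -0.41 and -0.20 (rescue). In the rescue 8 of 13 were below control in both repeats and 0 above it (29.8% and 24.9% of all genes). Gad1, which makes GABA, was below control in all 4 samples, at -0.65 and -1.14 (knockdown) and -0.84 and -0.91 (rescue). Nos1 was too, as were the enzyme genes Adcy3 and Pde1a, over ratios that share the 2 control arrays. Calb2 was at -0.33 and -2.82 in the knockdown and at -0.51 and -0.87 in the rescue. The 4 markers of Nos1-expressing interneurons (Npy, Sst, Chodl and Tacr1) had medians of 0.22 and 0.10 (knockdown) and 0.13 and -0.01 (rescue). Single markers went both ways, from -0.67 to 0.70 in knockdown repeat 2, and 3 of the 4 lay on opposite sides of control in the knockdown repeats (38.3% of all genes). The other, Chodl, picked out after its values were seen, was above control in both knockdown repeats, at 0.22 and 0.70. In the rescue Chodl was at -0.19 and 0.06 (limma adjusted p = 0.202 in the knockdown, and 0.0476 with the repeat as a block). The part of interneuron number in the Nos1 values was not tested.

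Astrocyte markers were above control in both knockdown repeats in 10 of 10 genes, where 30.5% of all genes were. Their medians were 0.27 and 0.37 in the knockdown repeats and -0.08 and -0.03 in the rescue repeats. Gja1, an astrocyte gap junction protein, was at 0.35 and 0.55 in the knockdown, and S100b at 0.72 and 0.34. In the rescue 5 of 10 were below control in both repeats, 2 above it and 3 on opposite sides (29.8%, 24.9% and 45.3% of all genes). There Gfap was at -0.46 and -0.31 and Aldh1l1 at -0.09 and -0.62. Itpkb was above control in both knockdown repeats, and the part of astrocytes in its values was not tested. Pan-neuronal markers had medians of -0.09 and -0.32 (knockdown) and 0.05 and 0.03 (rescue). The medians of oligodendrocyte lineage, microglia and endothelial and fibroblast markers ranged from -0.40 to 0.36 over the 4 samples.

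**Figure D4:**
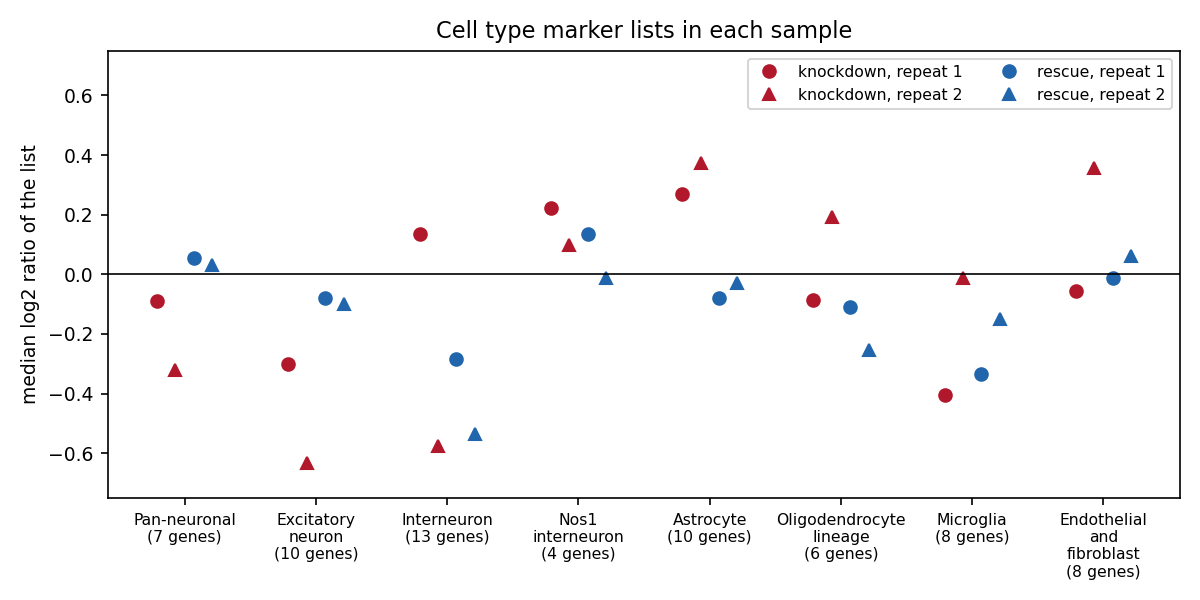
Median log2 ratio to control (vertical axis) of 8 cell type marker lists in each sample, with knockdown in red, rescue in blue, repeat 1 as circles and repeat 2 as triangles, and the number of genes measured under each name. Excitatory neuron medians are lower in the knockdown (-0.30 and -0.63) than in the rescue (-0.08 and -0.10). Astrocyte medians are higher in the knockdown (0.27 and 0.37) than in the rescue (-0.08 and -0.03).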

How the data were processed

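The deposited values are linear ratios of a test array to the control array of its own repeat, which the authors made. Background correction, summarization, normalization and genome build are not given in the sources used here, and without signal levels no filter or background correction for dim probes could be tried. The number of arrays limits the precision. The table held 35399 probe sets. Those with exactly 1 symbol in the platform annotation (21789; 1621 had several and 11989 none) were put on the log2 scale and averaged per symbol, giving 19938 genes.

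Genes were tested in limma 3.58.1 under R 4.3.3 (lmFit, eBayes, two-sided), with a coefficient for each group, 2 residual and 6.11 prior degrees of freedom, and Benjamini-Hochberg adjustment over all genes at 0.05. The method was tested on simulated data. The control arrays enter a test only through the ratios. Samples with the same number carry one replicate date in the labels and were divided by one control array, so they are paired. Their deviations from the group means correlated at 0.305 across genes. The SE and intervals, also of knockdown minus rescue, come from the fit without the block and do not use this pairing. Both groups share an estimate of the spread there, so the SE of either group also holds the spread of the other. The alternatives were the repeat as a block, quantile normalization, median centring, other summaries of probe sets, a robust prior, fits of one group and leaving out each sample. Against control, leaving out a sample of the other group gave the same fit as the compared group alone. With the block, spread between repeats that both groups share is not part of the error, also in tests against control.

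The members and lists were chosen with earlier results of these data known. Named were the 9 enzymes, Calm2 and Calm3, the genes of each pathway list and of the excitatory, interneuron and astrocyte lists with the 2 largest mean changes in the knockdown and in the rescue, and the 3 genes nearest to any member whose knockdown mean was at least 0.58 in size, by Euclidean distance and leaving out predicted genes, olfactory and vomeronasal receptors and small RNAs, which was Itpka alone. Itpkc was named as a paralogue. Names and promoter windows came from RefSeq, GRCm38.p6. Protein sequences were not used here.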

Additional observations from a re-analysis of the deposited data

How the results depend on the processing

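Depth cannot be read from ratios, and 2 arrays per group limit every interval. The count of the 9 enzyme genes called against control in the knockdown was 0, and 1 with the replicate block; leaving out a replicate gave 0 to 3. Against rescue leaving out a replicate gave 0 to 1, and the rescue against control gave 0 under all alternatives. Over all genes the count in the knockdown was 61, 1074 with the replicate block, 20 after quantile normalization, 0 with every probe set tested, 12 with the knockdown samples alone and 12 to 1272 leaving out a replicate (1272 without knockdown replicate 1, 108 without knockdown replicate 2, 12 without either rescue replicate). In the rescue it was 0, 25 with the block, 1 after quantile normalization, 176 with the rescue samples alone and 0 to 176 leaving out a replicate. For knockdown against rescue it was 14, 123 with the block, 2 after quantile normalization, 0 with every probe set tested, 4 each with median centring, the median of probe sets, genes with 1 probe set and a robust prior, and 0 to 350 leaving out a replicate (350 without knockdown replicate 1, 147 without knockdown replicate 2). Higher against lower calls went from 27 and 34 to 13 and 7 in the knockdown after quantile normalization, and from 8 and 6 to 3 and 1 against rescue with median centring. Without rescue replicate 1 or 2 alike, 0 genes were called there. The lone sample of a group was assumed to vary like the other group.

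Among values of single enzyme genes under alternatives not leaving out a named replicate, 205 kept their direction and side of the threshold and 2 did not. Each of these genes had 1 probe set, so only quantile normalization and median centring could change a direction. For the other alternatives the kept direction was fixed in advance. The direction of Nos1 in knockdown against rescue turned to 0.21 after quantile normalization, and Itpka against control passed with the block, the only one of these calls that the block changed among the 9 genes. With a sample left out 11 values changed direction, 5 came past the threshold and 92 did neither. Against control, leaving out a sample of the other group could not change a value, and such values are among the 92. Leaving out a replicate, Adcy8 ran from -0.27 to 0.44 in the knockdown and from -0.58 to 0.13 against rescue. Pde1c ran from -0.12 to 0.0753 in the knockdown, from -0.21 to 0.50 in the rescue and from -0.53 to 0.18 against rescue. In the rescue Adcy1 ran from -0.53 to 0.25, Pde1b from -0.0393 to 0.28, Itpka from -0.48 to 0.31 and Prkar2a from -0.81 to 0.0188. Against rescue Pde1a ran from -0.73 to 0.0114 and Nos1 from -0.36 to 0.34. The cause of these turns was not tested.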
